A study of Mus musculus with 6 samples.

Results

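The 10 genes described here encode Kruppel-like factors: Klf2, Klf3, Klf4, Klf5, Klf6, Klf7, Klf9, Klf10, Klf13 and Klf16. They were taken by gene symbol from the 19938 genes that could be named on expression arrays of mouse embryonic stem (ES) cells, and each of the 10 had 1 probe set. Kruppel-like factors are transcription factors that bind GC-rich and CACCC sequences through a block of zinc fingers at the end of the protein. Members differ in the rest of the protein, which recruits acetyltransferases, the corepressor CtBP or the corepressor Sin3a. In mouse ES cells Klf2, Klf4 and Klf5 are known as partly interchangeable supports of self-renewal, and Klf4 is a target of the LIF and STAT3 pathway and 1 of the factors used to reprogramme somatic cells.

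The arrays compared 3 RNA samples of Satb1-/- ES cells, named in the labels as clones 1-1, 1-2 and 2-1, with 3 samples of WT ES cells, numbered 1, 2 and 3 and labelled as control. SATB1 is a protein that binds AT-rich DNA and organises chromatin, and the comparison asks how its loss changes expression in undifferentiated cells. Both groups carried a HygroTK marker in the Oct4 locus, were maintained with LIF and serum, and were cultured for 3 days with hygromycin on irradiated feeder cells, most of which were left to settle out before RNA was taken. Nothing in the labels states that each array is a culture of its own, so the spread behind the p-values may be technical, and the labels do not tell how many separately made knockout lines the clone numbers stand for.

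Satb1 read 4.38, 4.47 and 4.57 in Satb1-/- arrays 1-1, 1-2 and 2-1, against 5.12, 4.99 and 5.31 in WT arrays 1, 2 and 3 (log2 expression), and its probes cannot check the knockout, since their place relative to the deletion is not known here. Satb1 differed by -0.67 (SE 0.12, limma adjusted p = 0.022), and this call was lost without WT array 1 or any one Satb1-/- array. The ES cell markers Pou5f1, Sox2, Nanog, Dppa5a and Tdgf1 averaged 9.83, 10.24, 10.95, 11.48 and 11.54 in Satb1-/- arrays and 10.22, 9.94, 9.87, 11.11 and 11.60 in WT arrays, so the labelled cell type carried its markers. The rest of the list of 9, Lin28a, Fgf4, Zfp42 and Utf1, differed by -0.34, 0.19, -0.11 and -0.01. At an unadjusted limma p under 0.05, 1181 of all 19938 genes were higher and 908 lower. The list had 2 higher and 2 lower at that level, and a median difference of -0.01. Its summed linear signal was 10916 to 11859 in Satb1-/- arrays and 9009 to 10610 in WT arrays. Over all genes Pearson's r was 0.993 to 0.995 among Satb1-/- arrays, 0.987 to 0.990 among WT arrays and 0.985 to 0.990 between the groups. The WT arrays were spread out, and WT arrays 1 and 3 stood apart in different ways. On the first principal component, which held 36.2% of the variance, WT array 1 scored 26.7, WT arrays 2 and 3 scored 10.6 and 3.69, and the Satb1-/- arrays scored -15.5 to -12.7. On the second component, with 29.4%, WT array 3 scored 29.3 and the other 5 arrays between -13.1 and -0.51. Where leaving out 1 array ended a call or made a new one for a named gene, that is stated beside the gene. For the genes of nearest profile, other than Socs3, it is not given.

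Klf4 and Klf5 were higher and Klf6 was lower in Satb1-/- cells. Klf4 rose by 0.97 and Klf5 by 0.60 log2 units, folds of 1.96 and 1.51, and Klf6 fell by 0.62. Klf7 differed by -0.56 without passing the threshold, and Klf2 by 0.08. In all, 2 of the 10 genes were higher and 1 was lower at a limma adjusted p under 0.05, against 0.923% and 0.476% of all genes in those directions. The 3 called genes compare with 1.4% of all genes called in either direction, and the other 7 did not pass. The 10 were chosen with earlier results of these data known, so their counts are not independent evidence. The labels do not say whether clones 1-1 and 1-2, whose names share a first number, came from 1 line. With these 2 arrays averaged, none of the 3 calls was kept, although the sizes were much the same: Klf4 was 0.97 (limma adjusted p = 0.181), Klf5 0.61 (0.0693) and Klf6 -0.59 (0.117), in a fit that called 0.587% of all genes.

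**Figure D1:**
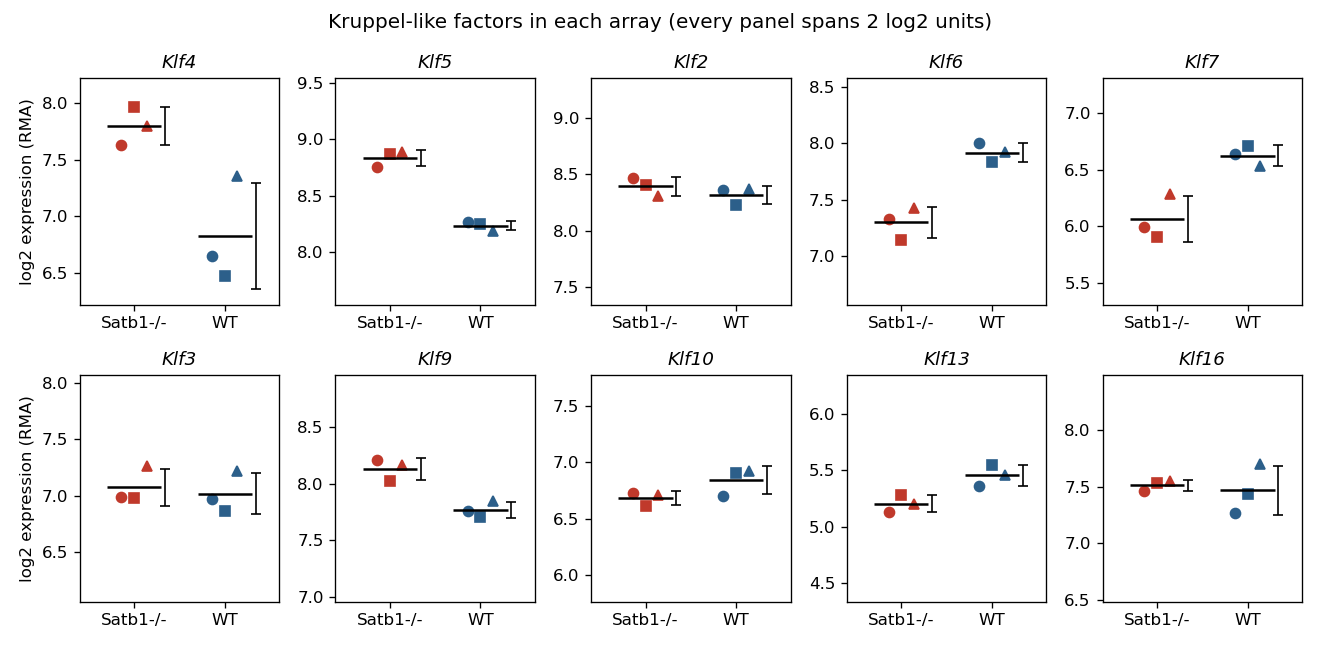
Log2 expression of the 10 factors in the 3 Satb1-/- arrays (red, left) and the 3 WT arrays (blue, right); circles, squares and triangles are clones 1-1, 1-2 and 2-1 or WT replicates 1, 2 and 3, horizontal bars are means and vertical bars SD. In the panels of Klf4 and Klf5 all red points lie above all blue ones, in those of Klf6 and Klf7 all lie below, and WT replicate 3 is the highest blue point of Klf4 (7.36).

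Klf4 encodes a factor that sustains the naive ES cell state. It read 7.63, 7.97 and 7.80 in Satb1-/- arrays 1-1, 1-2 and 2-1, against 6.65, 6.47 and 7.36 in WT arrays 1, 2 and 3. All Satb1-/- arrays were above all WT arrays, by a gap of 0.28 from WT array 3, which stood high among the WT arrays. The means were 7.80 ± 0.17 in Satb1-/- and 6.83 ± 0.47 in WT cells (SD, n = 3 each), a difference of 0.97 (SE 0.20, 95% interval 0.52 to 1.42, limma adjusted p = 0.0483). Klf4 had the largest WT SD of the 10 genes. Without WT array 3 the difference was 1.24 (limma adjusted p = 0.000556), and without any other single array it lay between 0.80 and 1.05 and missed the threshold.

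Klf5, which acts in the inner cell mass and in trophectoderm as well as in ES cells, had a smaller estimate than Klf4 and a narrower spread within each group. It read 8.75, 8.87 and 8.88 in Satb1-/- arrays, against 8.27, 8.25 and 8.19 in WT arrays. The groups lay 0.48 apart at their nearest values, and no array stood out in either. The means were 8.83 ± 0.07 in Satb1-/- and 8.24 ± 0.04 in WT cells (SD, n = 3 each), a difference of 0.60 (SE 0.10, 95% interval 0.38 to 0.82, limma adjusted p = 0.0166). The size was 0.57 to 0.64 whichever array was left out, and without any one Satb1-/- array the adjusted p was 0.0669 to 0.129.

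Klf2, the remaining member of the ES cell trio, showed no detectable difference. It read 8.47, 8.41 and 8.31 in Satb1-/- arrays, against 8.36, 8.23 and 8.37 in WT arrays, and the groups overlapped. The difference was 0.08 (SE 0.10, limma adjusted p = 0.909), with a 95% interval of -0.15 to 0.31 that lies below that of Klf5. Set directly against each other within each array, Klf5 minus Klf2 was 0.28, 0.46 and 0.58 in Satb1-/- arrays and -0.09, 0.02 and -0.18 in WT arrays. The levels of 2 probe sets cannot be compared, so only the shift between the groups is read, which was 0.52 (SE 0.10), and the corresponding shift of Klf4 minus Klf2 was 0.89 (SE 0.27). In both pairs every Satb1-/- array was above every WT array, which gave an exact permutation p of 0.1 (two-sided, 3 pairs of genes tested, adjusted p = 0.15), the smallest p that 3 against 3 arrays allow. Klf4 minus Klf5 shifted by 0.37 (SE 0.30, exact permutation p = 0.4, adjusted p = 0.4), with overlapping groups. As 0.1 was the smallest possible p, none of the 3 pairs could pass 0.05, and the test separated none of them. Klf2 also lies among genes of chromosome 8 that were lower in Satb1-/- cells, as described below. Set against the 20 nearest brighter genes in each array, Klf2 differed by 0.45, Klf5 by 0.58 and Klf4 by 0.70. The part of these surroundings in the shifts between pairs was not tested.

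Klf6 and Klf7 are close relatives of each other and belong with Klf2, Klf4 and Klf5 to the activating, acetyltransferase-binding subgroup. KLF6 is known as an early response factor in wounded and differentiating tissue, and KLF7 for its part in axon growth. Klf6 read 7.33, 7.15 and 7.42 in Satb1-/- arrays, against 7.999, 7.83 and 7.92 in WT arrays. The groups were 0.41 apart, with means of 7.30 ± 0.14 in Satb1-/- and 7.92 ± 0.08 in WT cells (SD, n = 3 each). The difference was -0.62 (SE 0.11, 95% interval -0.87 to -0.37, limma adjusted p = 0.0261), and WT levels were 1.53 times those of Satb1-/- cells. It stayed past the threshold without WT array 2 or 3 and missed it without any one of the other 4 arrays, at -0.68 to -0.54.

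Klf7 read 5.99, 5.91 and 6.29 in Satb1-/- arrays, against 6.64, 6.71 and 6.53 in WT arrays. The groups did not overlap, and array 2-1 was the Satb1-/- array nearest to WT. The difference was -0.56 (SE 0.12, 95% interval -0.84 to -0.29, limma adjusted p = 0.0594), just short of the threshold. It passed without WT array 3 (-0.61, limma adjusted p = 0.0398), among genes brighter than the median gene (0.0481), after a second quantile normalization (0.0473) and with array weights (0.0332). In this subgroup of 5 genes, 2 were therefore called higher and 1 lower, and the range ran from -0.62 to 0.97.

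None of the factors that recruit a corepressor passed the threshold. With 1.4% of all genes called in either direction, no call among so few genes does not set them apart. The 4 Sin3a-binding genes differed by -0.25 to 0.36 (lowest limma adjusted p 0.17). Klf9, which is induced by glucocorticoid and thyroid hormones, read 8.21, 8.02 and 8.17 in Satb1-/- arrays, against 7.76, 7.71 and 7.85 in WT arrays. These values were 0.17 apart at their nearest, a difference of 0.36 (SE 0.11, 95% interval 0.13 to 0.59, limma adjusted p = 0.17). Klf13, known from human T cells as an activator of the chemokine gene CCL5, read 5.13, 5.28 and 5.20 in Satb1-/- arrays, against 5.36, 5.55 and 5.46 in WT arrays. The groups were separated by 0.08 only, with a difference of -0.25 (SE 0.11, 95% interval -0.49 to -0.02, limma adjusted p = 0.418).

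The last 3 factors had overlapping groups. Klf10, an early gene of the TGF-beta response, read 6.72, 6.62 and 6.71 in Satb1-/- arrays, against 6.70, 6.91 and 6.92 in WT arrays (difference -0.16, 95% interval -0.40 to 0.08, limma adjusted p = 0.716). Klf16, a little studied Sin3a-binding repressor, read 7.46, 7.53 and 7.55 in Satb1-/- arrays, against 7.27, 7.44 and 7.70 in WT arrays (difference 0.04, 95% interval -0.23 to 0.32, limma adjusted p = 0.964). Klf3, the CtBP-binding member, read 6.99, 6.98 and 7.26 in Satb1-/- arrays, against 6.97, 6.87 and 7.22 in WT arrays (difference 0.06, 95% interval -0.23 to 0.34, limma adjusted p = 0.956). In both groups 1 Klf3 array stood above the others, 2-1 among the Satb1-/- arrays and 3 among the WT arrays. The intervals of Klf3, Klf10 and Klf16 leave room for differences of up to 0.34, -0.40 and 0.32.

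Across the 10 genes, the Satb1-/- arrays lay all above the WT arrays for 3 (Klf4, Klf5 and Klf9) and all below for 3 (Klf6, Klf7 and Klf13). Over all genes 8.18% lay above and 6.97% below in this way, 15.1% in all. The median difference of the 10 was 0.05 and the median absolute difference 0.31, beside 0.02 and 0.12 for genes brighter than the median gene. All 10 were in that brighter part of the table. An absolute difference of at least 0.5 was found for 4 of the 10, against 5.39% of the brighter genes. These counts too come from genes chosen with earlier results of these data known. The family did not shift one way, and its larger differences were split between higher and lower.

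**Figure D2:**
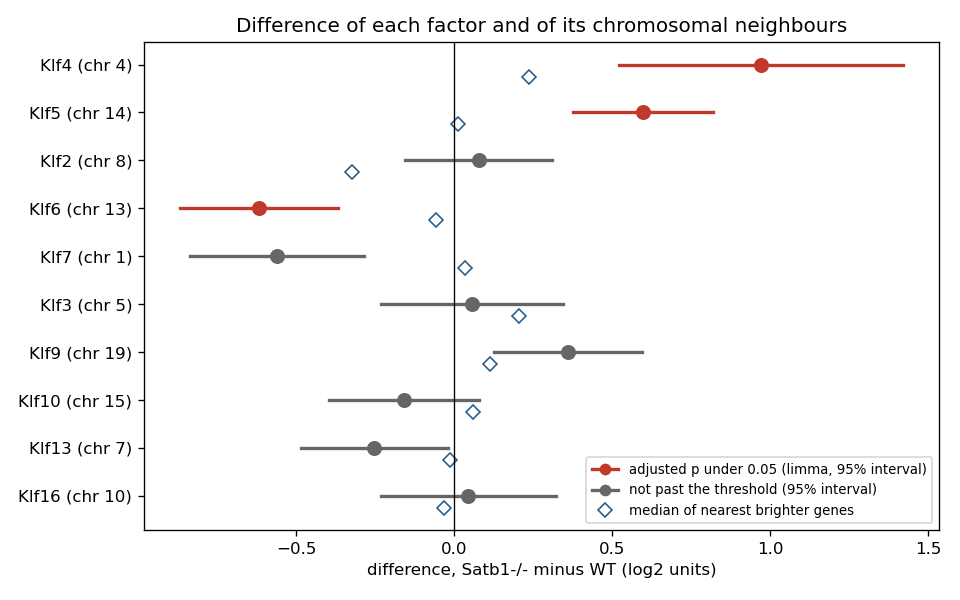
Difference between Satb1-/- and WT cells in log2 units for each factor, with its 95% interval (red: limma adjusted p under 0.05; grey: not past it); open diamonds give the median difference of the nearest genes on the same chromosome, 20 for each factor and 16 for Klf6. Klf4 stands at 0.97 with neighbours at 0.24, and Klf2 at 0.08 with neighbours at -0.32.

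The 10 genes lie on 10 different chromosomes, so none of them shares its surroundings with another. Around Klf4 and Klf2, however, neighbouring genes mostly differed in 1 direction. Of the 20 brighter genes nearest to Klf4 on chromosome 4, 10 on each side, 18 were higher in Satb1-/- cells, with a median difference of 0.24 and a range of -0.10 to 0.99. Of these, 2 were called higher, Ctnnal1 and Epb41l4b, against 0.923% of all genes. Epb41l4b, named after its value was seen, passed in 1 of the 6 fits that left out an array. These fits called 1 to 4 of the 20 neighbours, with 4 without WT array 3. The gene before Klf4, Rad23b, which encodes a DNA repair protein, differed by 0.05 (SE 0.13, limma adjusted p = 0.956), and the gene after Klf4, Ctnnal1, which encodes an alpha-catenin-like protein, by 0.99 (SE 0.12, limma adjusted p = 0.00303). Klf4 exceeded 19 of the 20 neighbours. Relative to the WT mean, the neighbours' median was 0.23, 0.24 and 0.20 in Satb1-/- arrays 1-1, 1-2 and 2-1, where Klf4 itself was at 0.81, 1.14 and 0.97. When every gene was set against the median of its 20 neighbours in each array, the difference of Klf4 was 0.70 and missed the threshold (limma adjusted p = 0.09). The median of the brighter genes of chromosome 4 was 0.03. Set against its chromosome's median in each array, Klf4 was 0.93 and passed the threshold (limma adjusted p = 0.0206). The part of the neighbourhood's shift in the difference of Klf4 was not tested beyond these fits.

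Around Klf2 the neighbours lay the other way. All 20 of its neighbours on chromosome 8 were lower in Satb1-/- cells, with a median of -0.32 and a range of -0.47 to -0.06. However, 0 of the 20 were called by limma after adjustment, where 1.4% of all genes were called. The gene before it, Ap1m1, which encodes a clathrin adaptor subunit, differed by -0.22 (SE 0.12, limma adjusted p = 0.642), and the gene after it, Eps15l1, which encodes an endocytic adaptor, by -0.41 (SE 0.12, limma adjusted p = 0.181). The median of the other 569 brighter genes of chromosome 8 was -0.29, and 95.6% of them lay below Klf2. The chromosomes of the other members had medians of -0.0014 to 0.041, so the lower values around Klf2 were not limited to its neighbours. The neighbours' median was -0.25, -0.44 and -0.30 in Satb1-/- arrays 1-1, 1-2 and 2-1 relative to the WT mean, where Klf2 was at 0.15, 0.09 and -0.01. Set against its neighbours, Klf2 was 0.45 higher in Satb1-/- cells, short of the threshold (limma adjusted p = 0.229). The difference of Klf2, near 0, thus stood among neighbours with negative differences.

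**Figure D3:**
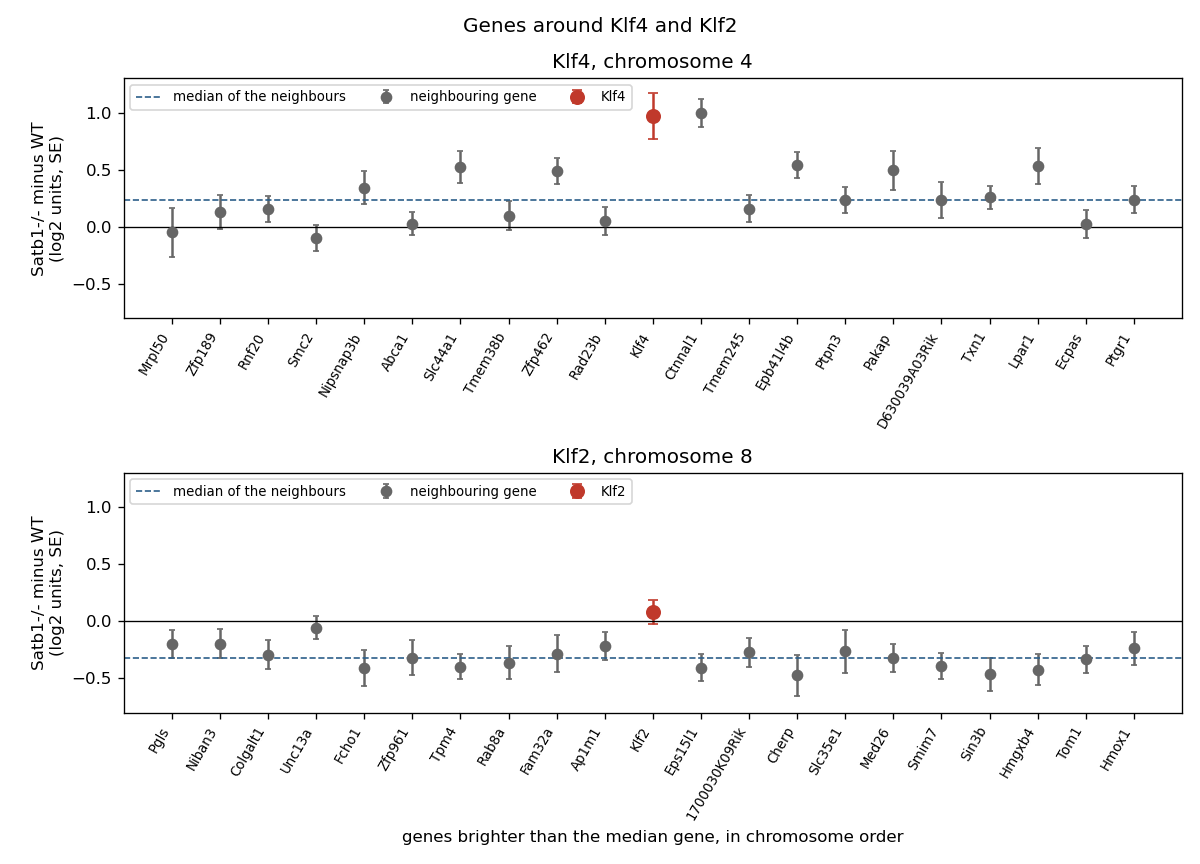
Difference between Satb1-/- and WT cells (log2 units, bars are SE) for Klf4 (top) and Klf2 (bottom) and the 10 nearest genes on each side that were brighter than the median gene, in chromosome order. Klf4 (0.97) and Ctnnal1 (0.99) stand above a neighbourhood with a median of 0.24, and Klf2 (0.08) stands above neighbours that are all below 0.

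The surroundings of Klf5, Klf6 and Klf7 had medians near 0. The neighbours of Klf5 on chromosome 14 had a median of 0.01, with 11 higher and 9 lower, and Klf5 lay above all 20. Those of Klf6 on chromosome 13, which has fewer brighter genes on one side so that 16 were counted, had a median of -0.06, and Klf6 lay below all of them. The 20 neighbours of Klf7 on chromosome 1 had a median of 0.03, and Klf7 also lay below all of them. Against their neighbours Klf5 differed by 0.58, Klf6 by -0.54 and Klf7 by -0.59, close to the values above, while adjusted p-values were 0.079, 0.122 and 0.083 in that fit. For Klf3 on chromosome 5 the neighbours had a median of 0.20, and its difference of 0.06 became -0.27 against them (limma adjusted p = 0.598).

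The promoters of Klf4, Klf6 and Klf2 are shown because these genes were called higher, called lower and not called, and because the family's own binding sequences occur in such GC-rich DNA. Each sequence is the 250 bases before the annotated start, 5′ to 3′ on the gene's strand, from RefSeq (GRCm38.p6). Capitals mark matches on either strand to the GC box GGGCGG, the CACCC box CACCC, the STAT palindrome TTCNNNGAA and the E box CACGTG, some of which overlap or touch. The Klf4 promoter lies at chr4:55532476-55532725 on the minus strand, that of Klf6 at chr13:5861239-5861488 on the plus strand and that of Klf2 at chr8:72318812-72319061 on the plus strand.
Klf4: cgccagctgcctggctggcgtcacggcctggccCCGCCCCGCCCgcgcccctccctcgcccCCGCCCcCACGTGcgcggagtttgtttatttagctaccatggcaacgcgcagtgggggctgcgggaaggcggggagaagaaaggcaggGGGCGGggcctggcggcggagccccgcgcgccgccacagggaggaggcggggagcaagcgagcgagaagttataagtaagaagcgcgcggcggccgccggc
Klf6: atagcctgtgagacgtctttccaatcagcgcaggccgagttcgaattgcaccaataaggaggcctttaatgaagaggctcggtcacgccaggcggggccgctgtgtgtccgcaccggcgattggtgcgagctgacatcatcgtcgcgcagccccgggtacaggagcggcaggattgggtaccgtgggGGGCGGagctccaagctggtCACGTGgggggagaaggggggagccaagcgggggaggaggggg
Klf2: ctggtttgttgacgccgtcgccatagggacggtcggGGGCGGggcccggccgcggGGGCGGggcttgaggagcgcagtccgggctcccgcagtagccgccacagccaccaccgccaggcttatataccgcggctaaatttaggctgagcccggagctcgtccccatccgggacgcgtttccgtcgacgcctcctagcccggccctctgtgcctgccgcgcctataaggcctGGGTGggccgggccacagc
The Klf4 window held 4 GC boxes, 1 E box and 0 CACCC boxes. That of Klf6 held 1 GC box, 1 E box and 0 CACCC boxes, and that of Klf2 held 2 GC boxes, 1 CACCC box and 0 E boxes.

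Of 32851 promoter windows of the same length, 32.7% held a GC box, 52.0% a CACCC box, 7.02% a STAT palindrome and 6.02% an E box. The GC content was 74.0% for Klf4, 64.8% for Klf6 and 71.2% for Klf2, against a median of 52.4% over all windows. A promoter was matched by symbol in RefSeq for 7 of the 10 genes. Among the remaining 4 windows, Klf3 had 6 GC boxes and 5 CACCC boxes, Klf7 had 1 and 3, Klf13 had 3 and 1, and Klf9 had 1 CACCC box and the only STAT palindrome of the 7. Klf4, with a rise of 0.97, and Klf2, with a difference of 0.08, had 4 and 2 GC boxes in this window, and neither had a STAT palindrome there. These are matches of letters and not measured binding.

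The other genes of the wider family gave no call with all 6 arrays. Over all genes 1.4% were called in either direction and 10.5% had an unadjusted limma p under 0.05. Low counts in such short lists therefore do not set these relatives apart from other genes. Of 7 further Kruppel-like factors measured (Klf1, Klf8, Klf11, Klf12, Klf14, Klf15 and Klf17), limma called 0, with 1 at an unadjusted p under 0.05, and their median difference was -0.16. Klf11, the brightest of them and a Sin3a-binding relative of Klf10, averaged 7.44 ± 0.12 in Satb1-/- and 7.42 ± 0.08 in WT cells (SD, n = 3 each; difference 0.02, limma adjusted p = 0.982). The 1 gene at that unadjusted level was Klf8, a CtBP-binding relative of Klf3, named after its value was seen; it averaged 6.26 ± 0.01 in Satb1-/- and 5.71 ± 0.41 in WT cells (difference 0.54, SE 0.18, limma adjusted p = 0.241). Without WT array 3 Klf8 passed the threshold, at 0.77 (limma adjusted p = 0.00523). Of 8 SP factors, which share the zinc finger block and bind the GC box, limma also called 0 and none had an unadjusted p under 0.05. Their differences ran from -0.21 to 0.13, and Sp3, the brightest, read 8.15 ± 0.04 in Satb1-/- and 8.15 ± 0.23 in WT cells (SD, n = 3 each; limma adjusted p = 0.996).

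Upstream of the ES cell factors lie the LIF receptor and STAT3, which induce Klf4, and the MEK5, ERK5 and MEF2 route, which is known to induce Klf2 in endothelial cells. Of 13 genes of these routes 1 was higher and 0 lower, against 0.923% and 0.476% of all genes, and the median difference was 0.20. The called gene was Socs3, a STAT3 target that feeds back on the LIF receptor, at 7.79 ± 0.11 in Satb1-/- and 7.19 ± 0.11 in WT cells (SD, n = 3 each; difference 0.60, SE 0.11, limma adjusted p = 0.0287). It missed the threshold without WT array 1 or any one Satb1-/- array, where leaving out 1 array gave 0.54 to 0.66. Il6st, the shared signalling receptor subunit, differed by 0.32 (limma adjusted p = 0.538), Map3k2, a kinase above MEK5, by 0.28 (limma adjusted p = 0.545) and Mef2d, a MADS-box factor, by -0.33 (limma adjusted p = 0.2). Of 13 cofactor and turnover genes limma called 0, with 1 higher and 1 lower at an unadjusted p under 0.05. Over all 19938 genes 1181 were higher and 908 lower at that level. The acetyltransferase gene Kat2b differed by 0.54 (limma adjusted p = 0.206), and by 0.75 without WT array 3, where it passed (limma adjusted p = 0.00564). The corepressor gene Sin3b differed by -0.47 (limma adjusted p = 0.192), the ubiquitin ligase subunit gene Btrc by 0.20 (limma adjusted p = 0.664) and the deacetylase gene Hdac1 by 0.17 (limma adjusted p = 0.74). Sin3b is the seventh brighter gene after Klf2 on chromosome 8.

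Of 14 pluripotency genes with which Klf2, Klf4 and Klf5 act, 6 were higher and 0 lower, against 0.923% and 0.476% of all genes. Their median difference was 0.43 beside 0.02 for brighter genes. This list was drawn up with earlier results of these data known and is not independent evidence of a direction. Tbx3, a T-box factor of the naive ES cell network, averaged 7.31 ± 0.15 in Satb1-/- and 5.72 ± 0.43 in WT cells (SD, n = 3 each; difference 1.59, limma adjusted p = 0.00215). Nr5a2, a nuclear receptor, differed by 1.32, Nanog by 1.09 and Prdm14, a regulator of germ cells and naive pluripotency, by 1.09. The CP2-family factor Tfcp2l1 (0.88) and the orphan nuclear receptor Esrrb (0.56) made up the 6 called genes. Leaving out 1 array gave 3 to 7 called partners, with the fewest (3) without Satb1-/- array 1-2 or 2-1, and Tbx3, Nr5a2 and Nanog passed in all 6 of these fits. Esrrb missed the threshold without WT array 1 or any one Satb1-/- array, Tfcp2l1 without WT array 1 or Satb1-/- array 1-2 or 2-1, and Prdm14 without Satb1-/- array 1-2 or 2-1. Against their chromosomal neighbours the partners' median was 0.16, with 4 called. Among the others, none of them called, Nr0b1, named after its value was seen, had the largest difference, at 0.75. Without WT array 3 Nr0b1 was 1.06 and passed (limma adjusted p = 0.0043). Mycn, also named after its value was seen, differed by -0.32, or -0.13 without WT array 3. Sox2 differed by 0.30 (limma adjusted p = 0.316) and Pou5f1 by -0.39 (limma adjusted p = 0.309). Pou5f1 was highest in WT array 3, without which its difference was -0.23.

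**Figure D4:**
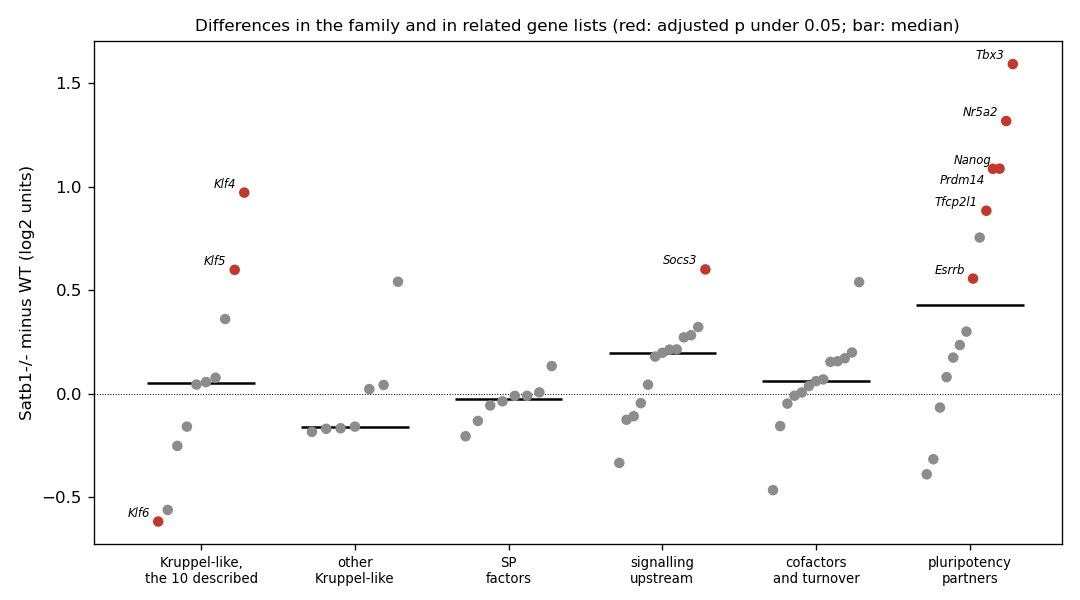
Difference between Satb1-/- and WT cells (log2 units) for each gene of the family and of 5 related lists; red points passed a limma adjusted p under 0.05 and are named, grey points did not, and bars are list medians. The 10 factors spread on both sides of 0, the SP factors stay within -0.21 to 0.13, and the pluripotency partners have a median of 0.43.

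Other cells that the samples could hold also use Kruppel-like factors, and in bulk RNA a change in the number of such cells and a change in RNA per cell cannot be told apart. Over all 19938 genes limma called 184 higher and 95 lower. At an unadjusted limma p under 0.05, 1181 of them were higher and 908 lower, and 9679 had a positive difference. Of 19 feeder fibroblast markers limma called 0, with 4 higher and 0 lower at an unadjusted p under 0.05, and 17 had a positive difference (median 0.18). Their summed linear signal was 3458 to 3832 in Satb1-/- arrays, overlapping 2655 to 3618 in WT arrays, with Thy1 at 0.62, Postn at 0.61, Dcn at 0.59 and Pdgfra at 0.53 the largest differences. Thy1, Postn and Dcn were lowest in WT array 3, and without it they differed by 0.39, 0.31 and 0.24. Without WT array 2 the collagen gene Col1a2, named after its value was seen, was called higher (0.63, limma adjusted p = 0.0483). Their part in the differences of Klf4, Klf6 or Klf9, which fibroblasts also express, was not tested. The trophectoderm list summed to 649 to 752 in Satb1-/- arrays and 1128 to 2380 in WT arrays, with the keratin genes Krt8 (-2.72) and Krt18 (-2.48) as its 2 called genes of 10, and WT array 3 highest. At an unadjusted p under 0.05 the list had 3 higher and 3 lower genes, so its genes did not differ in a single direction. The 3 higher were Eomes (0.55) and, named after their values were seen, Tead4 (0.43) and Tfap2c (0.33), and in each all Satb1-/- arrays were above all WT arrays. The third lower gene was Ascl2, at -0.48, or -0.23 without WT array 3. None of these 4 was called after adjustment. The list's median was -0.20, and -0.05 without WT array 3, where the WT sums were 1128 and 1202. The primitive endoderm list summed to 726 to 755 in Satb1-/- arrays and 523 to 641 in WT arrays, with 0 of 10 called by limma and 2 higher at an unadjusted p under 0.05 (Pdgfra and Lamb1, at 0.53 and 0.52), and with Gata4 at -0.27 and Sox17 at -0.08. Pdgfra is on the feeder fibroblast list as well and counts in the sums of both lists. Lamb1 was called higher without WT array 2 (0.62, limma adjusted p = 0.0405). The part of these lists in the differences of Klf5 and Klf6 was not tested.

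Genes whose profile over the 6 arrays was nearest to those of the ES cell trio were found among 9959 brighter genes by the root mean square distance after each profile was centred on its own mean. Nearest to Klf4 were Mylpf, a myosin light chain gene (distance 0.14, difference 0.84), the keratin gene Krt42 (0.14, 1.00) and the glycosyltransferase gene B4galnt3 (0.14, 0.91), which lie on chromosomes 7, 11 and 6. Nearest to Klf5 were Cdo1, the cysteine dioxygenase gene (distance 0.04, difference 0.61), Nfu1, an iron-sulfur scaffold gene (0.06, 0.62), and Socs3 (0.06, 0.60). Nearest to Klf2 were Rac1, which encodes a small GTPase (distance 0.02, difference 0.05), Garem1, an adaptor gene (0.03, 0.12), and Pmm1, a phosphomannomutase gene (0.03, 0.08). No gene came as near to Klf4 as the named ones came to Klf2 and Klf5. The distance was not scaled to a profile's own variation, and the WT SD was 0.47 for Klf4, 0.08 for Klf2 and 0.04 for Klf5. The larger distances from Klf4 therefore do not show that its profile was unusual. The likeness rests on 6 arrays. Of the sum of squares of each profile, 74.3% lay between the groups for Klf4 and 97.5% for Klf5, but 25.1% for Klf2, so the genes nearest to Klf2 matched it mainly in the spread within the groups. It says nothing of shared control.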

How the data were processed

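RNA of 6 mouse ES cell samples was measured on 1-colour arrays. The deposited values are log2 expression, 1 per probe set and array, which the authors made with RMA (background correction, normalization, probe summary), per the submitters' processing notes; its settings and the genome build are not stated in those notes. Array medians were 4.69 to 4.85. Arrays have no read depth, and their number limits the precision.

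Of 35557 probe sets, 21789 had exactly 1 gene symbol in the platform annotation, 1621 had several and 12147 had none; the brightest probe set of each gene was kept (19938 genes). Chromosomes and gene order came from RefSeq (GRCm38.p6, 19856 genes matched by Entrez ID). Satb1-/- minus WT was fitted over all genes with limma 3.58.1 (R 4.3.3), with no covariate and Benjamini-Hochberg adjustment, threshold 0.05. The fit was tested on simulated data. Pairs of members were compared by an exact permutation test (SciPy 1.17.1). Alternatives left out each array, or changed the filter, probe sets, normalization, weights, variance model, clones or genome position. The named genes were all members, Satb1, called or brightest family relatives, the 4 largest differences of each related list, nearest profiles, and the nearest genes beside Klf2 and Klf4; exceptions are stated. The members and lists were chosen with earlier results of these data known.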

Additional observations from a re-analysis of the deposited data

How the results depend on the processing

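The signs of Klf4, Klf5, Klf6, Klf7, Klf2, Klf9, Klf10 and Klf13 were the same in all 16 alternatives run. Those of Klf3 and Klf16, both near 0, were not: Klf3 differed by -0.27 against its neighbours, by -0.035 against its chromosome and by -0.038 to 0.16 with 1 array left out, and Klf16 by -0.0057 after a second quantile normalization and by -0.056 to 0.16 with 1 array left out. The calls were less stable than the sizes. With each array left out in turn, 0 to 2 members were higher and 0 to 2 lower, with differences of 0.80 to 1.24 for Klf4, 0.57 to 0.64 for Klf5, -0.68 to -0.54 for Klf6 and -0.67 to -0.48 for Klf7; no member passed without any one knockout array, where 5 or 6 had an unadjusted p under 0.05 (10.5% of all genes in the full fit). The fits without a knockout array called 0.471% to 0.607% of all genes and those without a WT array 0.943% to 2.41%, against 1.4% with all 6. Tested over all probe sets, with arrays 1-1 and 1-2 averaged, or against the 20 nearest genes, 0 members passed in either direction, where 0.233%, 0.587% and 1.25% of all features were called. Klf4 was then 0.97, 0.97 and 0.70, Klf5 0.60, 0.61 and 0.58, and Klf6 -0.62, -0.59 and -0.54. The fit over all probe sets had more tests in the adjustment and an SE of 0.23 for Klf4, against 0.20 in the main fit. The averaged fit had fewer samples. The mean of all probe sets (Klf4 0.97, limma adjusted p = 0.0507) and centred arrays (Klf4 1.00, 0.0609) left 1 higher member, as did centring on chromosomes, where Klf5 was 0.55. Klf7 passed, making 2 lower members, among brighter genes (-0.56), after a second quantile normalization (-0.61), with array weights (-0.56) and without WT replicate 3 (-0.61). What caused any of these changes in the calls was not tested. No paired analysis was possible because the replicate names of the 2 groups do not match.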
